A study of Mus musculus with 4 samples.

Results

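The regions described here are GATA4 peaks that lay just outside acetylated chromatin in the ventricles of the newborn mouse heart. A GATA4 peak was taken when it was on chromosomes 1 to 19, shared no base with an H3K27ac peak and had its border at most 25 kb from the border of the nearest H3K27ac peak. This held for 871 of 10319 autosomal GATA4 peaks, or 8.44% (95% Wilson interval 7.92 to 8.99), out of 10530 GATA4 peaks on all chromosomes. They are called flanking GATA4 peaks below. The other autosomal GATA4 peaks were 8295 that overlapped H3K27ac, called acetylated, and 1153 that lay more than 25 kb from any H3K27ac peak, called distant.

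GATA4 is a zinc-finger transcription factor that binds DNA at GATA sequences, and it is needed for the growth and gene programme of heart muscle cells. H3K27ac is acetylation of lysine 27 on histone H3, a mark laid down by the acetyltransferases p300 and CBP at active promoters and enhancers. GATA4 recruits p300, and an active enhancer commonly carries acetylated nucleosomes on either side of the stretch to which the factors bind. TCF7L2 is the DNA-binding partner of beta-catenin in Wnt signalling, a pathway that acts in heart development.

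The tissue was ventricle of wild-type C57BL/6 mice at postnatal day 6, with no treatment listed. Each chromatin immunoprecipitation used the pooled ventricles of 10 hearts, cross-linked with formaldehyde and sheared to fragments that averaged 300 bp. Ventricle contains muscle cells, fibroblasts, endothelial and other cells, so a peak cannot be assigned to 1 cell type, and binding and acetylation in the same or in different cells cannot be told apart. Peak lists of GATA4, H3K27ac and TCF7L2 were analysed; the input sample was not analysed here. The labels give 2 biological replicates for each antibody, but each antibody has 1 list, which holds positions only. There is therefore no replicate error, height or read depth, and no test was made: intervals cover counting error over peaks, and neighbouring peaks are not fully independent. Positions are 1-based in mm9. The annotation at hand is of another build, so the peaks were not placed in genes, exons or introns and no sequence was read.

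The choice of peaks fixed their distances from acetylation only at the ends, and within the allowed range they were uneven. The median distance was 5319 bp (quartiles 525.5 and 13370.5 bp). Close to a border the peaks crowded: 83 of 871 (9.53%, 7.75 to 11.7) lay within 100 bp of H3K27ac and 213 (24.5%, 21.7 to 27.4) within 500 bp. Only 44 more lay between 0.5 and 1 kb, 76 between 1 and 2.5 kb and 90 between 2.5 and 5 kb. The ranges from 5 to 10 kb and from 10 to 25 kb held 154 and 294 peaks, but these ranges also contain far more DNA.

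Divided by the length of chromosome at each distance, GATA4 peaks were dense for about 0.5 kb beyond an acetylated border and then fell to about the level of distant chromatin. Inside H3K27ac there were 33.3 GATA4 peak midpoints per Mb (exact Poisson 95% interval 32.6 to 34.0). In the first 0.25 kb outside a border there were 5.51 per Mb (4.78 to 6.32), of which the flanking peaks made up 97 of 203 midpoints; the others belonged to peaks that reached into H3K27ac and were classed as acetylated. From 0.25 to 0.5 kb the density was 3.43 per Mb (2.80 to 4.15), and 103 of 104 midpoints belonged to flanking peaks. From 0.5 to 1 kb it was 1.06 per Mb (0.785 to 1.39). It was lowest from 2.5 to 5 kb, at 0.688 per Mb (0.554 to 0.844), and stood at 0.993 per Mb (0.882 to 1.11) from 10 to 25 kb.

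Pooled from 1 to 25 kb, the density was close to that of distant chromatin. The 621 flanking peaks with a midpoint 1 to 25 kb from H3K27ac gave 0.860 per Mb (0.794 to 0.931) over 721.8 Mb. The 1153 distant peaks gave 0.868 per Mb (0.818 to 0.919) over 1329 Mb. Each interval contains the other value, but the pool joins ranges below that level (1 to 5 kb) with one above it: 0.721 per Mb (0.571 to 0.898) at 1 to 2.5 kb, and the 0.993 given for 10 to 25 kb, whose interval overlaps that of distant peaks without either holding the other's value. In the first 0.5 kb, by comparison, flanking peaks alone gave 2.98 per Mb (2.58 to 3.42). The lengths include unsequenced stretches of the assembly, which were not removed, and the distance ranges were drawn with the data in view.

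**Figure D1:**
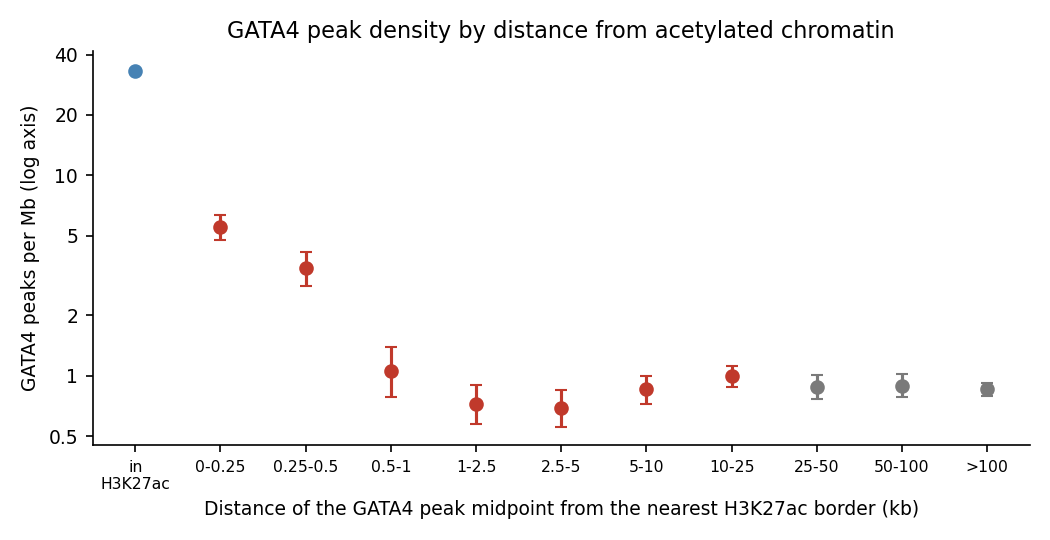
GATA4 peaks per Mb (log axis) against the distance of the peak midpoint from the nearest H3K27ac border, on chromosomes 1 to 19, with exact Poisson 95% intervals. Blue is the inside of H3K27ac peaks, red is up to 25 kb and grey is farther; the density drops from 5.51 per Mb in the first 0.25 kb to 1.06 per Mb at 0.5 to 1 kb and is 0.856 per Mb beyond 100 kb.

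The flanking peaks nearest to acetylation touched it or missed it by a few bases. The peak on chromosome 4 from 102042012 to 102042161 (150 bp) began where a 135 bp H3K27ac peak ended, at a distance of 0 bp. On chromosome 16 the peak from 19760231 to 19760388 stopped 1 bp short of an H3K27ac peak of 1166 bp, with no acetylation for 789.0 kb on its other side. The peak on chromosome 7 from 29221432 to 29221626 lay in a gap of 594 bp, 2 bp from a 2301 bp H3K27ac peak and 397 bp from the next. The other two of the 5 nearest were on chromosome 16, from 92697592 to 92697751 at 2 bp and from 8769178 to 8769302 at 3 bp. None of these 5 acetylated neighbours held a GATA4 peak of its own. The share was 11.0% over all flanking peaks and 8.74% over all autosomal H3K27ac peaks, so 5 neighbours are too few to show a difference. In addition, 109 of the 8295 GATA4 peaks classed as acetylated had less than 50% of their width in H3K27ac, so they lay mostly outside it.

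At the other end of the range, there were 0.993 GATA4 midpoints per Mb (0.882 to 1.11) from 10 to 25 kb. From 25 to 50 kb there were 0.881 (0.767 to 1.01). These intervals overlap, so no clear step was seen at the limit of 25 kb. The 5 peaks just inside it lay 24646 to 24910 bp from H3K27ac: chromosome 16 from 3820405 to 3820566, chromosome 1 from 88781865 to 88782094 and from 158326358 to 158326482, and chromosome 3 from 99992855 to 99993081 and from 97167523 to 97167704. Their widths were 125 to 230 bp. The 5 peaks just outside it, on chromosomes 9, 3, 4, 4 and 18, lay 25031 to 25596 bp away and were 129 to 458 bp wide. The closest of them was on chromosome 9 from 114959590 to 114959819. Neither set overlapped TCF7L2, which overlapped only 2.98% of all autosomal GATA4 peaks.

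When pooled, gaps over 50 kb between acetylated peaks held flanking peaks in about the proportion of sequence they supplied. Within this pool, gaps over 100 kb had more flanking peaks per Mb than gaps of 50 to 100 kb. Per Mb within 25 kb of H3K27ac, the shortest gaps were densest. Acetylation lay within 25 kb on both sides of 379 peaks (43.5%, 40.3 to 46.8), and the other 492 had it within that distance on 1 side only. With a limit of 50 kb for the choice and for both sides, the share was 51.5%. The gap between the H3K27ac peaks to the left and right had a median of 42.6 kb (quartiles 16.3 and 112.5 kb), and 382 peaks (43.9%, 40.6 to 47.2) lay in gaps over 50 kb, which supplied 41.5% of the unacetylated sequence within 25 kb of H3K27ac. In gaps of up to 2 kb there were 57 peaks (6.54%, 5.09 to 8.38), and these gaps supplied 3.43% of that sequence. This was 1.99 flanking peaks per Mb (1.50 to 2.57), against 1.01 (0.939 to 1.08) in longer gaps. Among the longer gaps, those of 50 to 100 kb had 0.874 per Mb (0.739 to 1.03). Those over 100 kb had 1.32 (1.16 to 1.50), and these 2 intervals do not overlap. All sequence in gaps of up to 2 kb lies within 1 kb of a border. These 57 peaks lay in 56 of 30827 such gaps. The H3K27ac list has no gap under 501 bp, so a GATA4 peak in a narrower dip of acetylation counts as acetylated.

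Short gaps held a minority of the peaks that crowded at a border, and at that distance they were not the densest. Of the 213 peaks within 500 bp of H3K27ac, 56 lay in gaps of up to 2 kb, 87 in gaps over 25 kb and 38 in gaps over 100 kb. Per Mb of sequence within 500 bp of a border, there were 2.65 flanking peaks (1.87 to 3.66) in gaps of 0.5 to 1 kb, 1.83 (1.10 to 2.86) in gaps of 1 to 2 kb, 1.43 (0.819 to 2.33) in gaps of 2 to 5 kb and 1.79 (1.02 to 2.90) in gaps of 5 to 10 kb. Values above these were seen in gaps over 10 kb, with 3.68 (2.60 to 5.05) for 10 to 25 kb, 5.64 (3.83 to 8.00) for 25 to 50 kb, 5.28 (3.13 to 8.34) for 50 to 100 kb and 10.8 (7.62 to 14.8) for gaps over 100 kb.

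The acetylated neighbours were somewhat narrower than H3K27ac peaks in general. The 871 peaks had 821 different nearest H3K27ac peaks, of which 40 were nearest to 2 or more and 1 to 5 of them. These neighbours had a median width of 1060 bp (quartiles 455 and 2498 bp). All autosomal H3K27ac peaks had a median of 1286 bp (quartiles 488 and 3529 bp), and those that held GATA4 a median of 6733 bp. For flanking peaks within 500 bp the neighbour's median was 724 bp, and 1310 bp for those 10 to 25 kb away.

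By count, GATA4 was called about as often beside as on acetylated peaks of up to 500 bp. Where it was called on or within 500 bp of a broad acetylated peak, it was nearly always on it. Of 18989 H3K27ac peaks of up to 500 bp, 85 (0.448%, 0.362 to 0.553) held a GATA4 peak and 77 (0.405%, 0.325 to 0.506) had a flanking peak within 500 bp. For widths of 500 to 1000 bp the counts were 148 (1.12%, 0.952 to 1.31) and 54 (0.408%, 0.313 to 0.532) of 13240. Among the 12812 H3K27ac peaks over 5 kb, 3968 (31.0%, 30.2 to 31.8) held GATA4 and only 14 (0.109%, 0.0651 to 0.183) had a flanking peak within 500 bp. A broad peak offers far more bases for an overlap, while the sequence within 500 bp of its borders is no longer than for a narrow one. Beside H3K27ac peaks of up to 500 bp that sequence was 17.4 Mb, more than these peaks can cover. Like counts there are therefore not like densities.

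Per base, flanking peaks were denser beside narrow acetylated peaks than beside broad ones. Within 500 bp of H3K27ac peaks of up to 500 bp there were 4.43 flanking peaks per Mb (3.50 to 5.54), against 1.57 (0.994 to 2.35) beside those of 2 to 5 kb and 1.23 (0.672 to 2.06) beside those over 5 kb. With every GATA4 midpoint outside H3K27ac counted, those of peaks that straddle a border included, the values were 5.47 (4.42 to 6.69), 2.59 (1.83 to 3.56) and 1.93 (1.21 to 2.93) per Mb. The contrast among flanking peaks was wider at borders that faced a gap over 25 kb. There the densities were 12.9 per Mb (9.18 to 17.5) beside H3K27ac peaks of up to 500 bp, 12.4 (8.23 to 17.9) for 500 to 1000 bp and 4.96 (2.64 to 8.49) for 1 to 2 kb. They fell to 1.56 (0.506 to 3.64) for 2 to 5 kb, from 5 peaks, and 0.795 (0.0201 to 4.43) above 5 kb, from 1 peak.

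**Figure D2:**
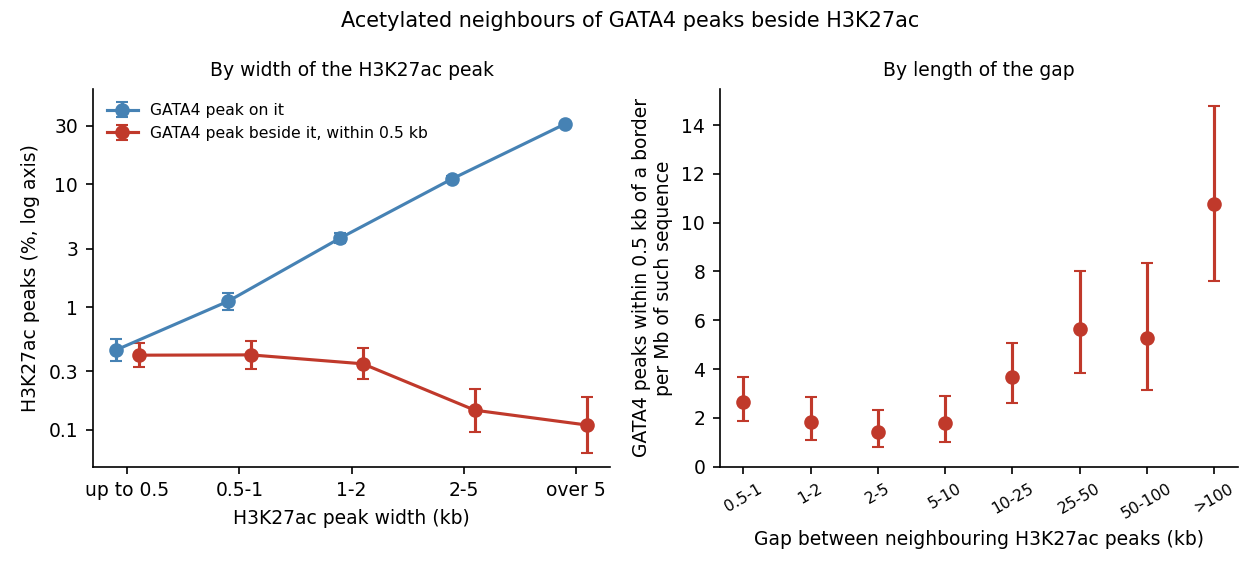
Left, percentage of autosomal H3K27ac peaks (log axis) that held a GATA4 peak (blue) or had a flanking GATA4 peak within 0.5 kb (red), by H3K27ac width, with 95% Wilson intervals; the values meet at 0.448% and 0.405% for peaks of up to 0.5 kb and part to 31.0% and 0.109% above 5 kb. Right, flanking GATA4 peaks per Mb of sequence within 0.5 kb of a border, by the length of the gap the border faced, with exact Poisson 95% intervals; the highest value, 10.8, is for gaps over 100 kb.

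Taken over all widths, the acetylated neighbours held GATA4 at a share near that of H3K27ac peaks in general. The nearest H3K27ac peak held a GATA4 peak for 96 of 871 flanking peaks (11.0%, 9.11 to 13.3), and a TCF7L2 peak for 8 (0.918%, 0.466 to 1.80). Over all 73728 autosomal H3K27ac peaks, 8.74% held GATA4 and 0.817% held TCF7L2, so these shares were near the background. Counting each neighbour once, 85 of 821 (10.4%, 8.45 to 12.6) held GATA4, an interval that contains the background. Within classes of H3K27ac width up to 5 kb, the share among the neighbours was higher than in the class, with few peaks behind it. It was 5 of 226 (2.21%, 0.949 to 5.07) against 0.448% for widths of up to 500 bp. For 500 to 1000 bp it was 4 of 177 (2.26%, 0.882 to 5.67) against 1.12%, which this interval contains. It was 12 of 170 (7.06%, 4.08 to 11.9) against 3.66% for 1 to 2 kb, and 37 of 164 (22.6%, 16.8 to 29.5) against 11.1% for 2 to 5 kb. Above 5 kb the shares were 27 of 84 (32.1%, 23.1 to 42.7) and 31.0%. By distance these shares had no steady course: 7.04% (4.31 to 11.3) of peaks within 500 bp, 17.1% (10.3 to 27.1) at 1 to 2.5 kb, 6.67% (3.09 to 13.8) at 2.5 to 5 kb and 12.2% (8.98 to 16.5) at 10 to 25 kb.

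The surroundings of flanking peaks were sparsely acetylated. H3K27ac covered a median of 6.83% (quartiles 2.31 and 16.4%) of the 25 kb on either side of a flanking peak, against 43.1% around acetylated GATA4 peaks. Over 100 kb on either side the medians were 8.04% and 31.3%, and 0% around distant peaks. The range for flanking peaks was wide, from 0.018% to 95.1% of the nearer window. The rule itself sets part of this difference, since it bars acetylation at the peak.

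Flanking peaks were intermediate in width. Their median was 164 bp (95% binomial interval of the median 158 to 170; quartiles 129 and 210 bp), compared with 195 bp (193 to 198) for acetylated and 149 bp (145 to 153) for distant GATA4 peaks. The most common GATA4 width, 125 bp, was near the narrow end of the list. It was the width of 190 flanking peaks (21.8%, 19.2 to 24.7), 12.8% (12.1 to 13.6) of acetylated and 30.4% (27.9 to 33.2) of distant peaks. Only 2 flanking peaks were narrower: 51 bp on chromosome 4 from 105116001 to 105116051 and 31 bp on chromosome 18 from 90772001 to 90772031, both starting just after a multiple of 100 bp. Width did not change steadily with distance from acetylation. The median was 173 bp (160 to 182) within 500 bp, 146.5 bp (137 to 161) at 5 to 10 kb and 164 bp (153 to 175) at 10 to 25 kb.

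**Figure D3:**
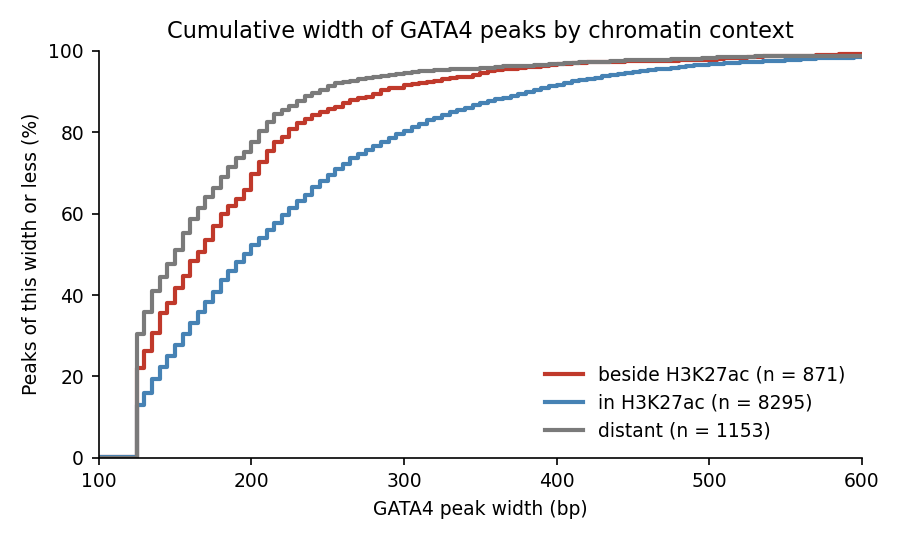
Cumulative percentage of GATA4 peaks up to each width in bp, for 871 flanking (red), 8295 acetylated (blue) and 1153 distant peaks (grey). The red curve runs between the others, with medians of 164, 195 and 149 bp; the step at 125 bp is the most common width.

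A few flanking peaks were very wide. Of 871, 19 (2.18%, 1.40 to 3.38) spanned 500 bp or more, against 3.35% of acetylated and 1.82% of distant peaks. The widest, 1950 bp on chromosome 2 from 127128411 to 127130360, lay 356 bp from a narrow H3K27ac peak of 597 bp. The next were 1064 bp on chromosome 2 from 170185968 to 170187031, in a gap of 8.72 kb, and 1045 bp on chromosome 17 from 83461825 to 83462869, which lay 6035 bp from a 455 bp H3K27ac peak. These 3 peaks stood well above the rest of the flanking peaks in width.

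From the fourth on, the widest peaks ranged from 800 to 576 bp, and they included both kinds of setting. Those on chromosome 15 from 101154377 to 101155176 (800 bp) and on chromosome 9 from 13338664 to 13339406 (743 bp) lay in gaps of 1.98 and 1.37 kb in otherwise dense acetylation, which covered 68.5% and 71.4% of the surrounding 25 kb on either side. The peak on chromosome 10 from 123571683 to 123572433 (751 bp) lay 11.4 kb from the nearest acetylation, which covered only 1.03% of its surroundings. The remaining 4 were on chromosome 13 from 74655145 to 74655827 and from 74696321 to 74696896, chromosome 10 from 68666676 to 68667268 and chromosome 16 from 43912429 to 43913010. None of the 10 widest overlapped TCF7L2, and 4 of 10 lay within 500 bp of H3K27ac. For 2 of 10 the nearest acetylated peak held GATA4. Over all flanking peaks these shares were 2.64, 24.5 and 11.0%.

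Company of other GATA4 peaks was likewise intermediate. Another GATA4 peak lay within 25 kb of 275 flanking peaks (31.6%, 28.6 to 34.7), compared with 45.4% of all autosomal GATA4 peaks. For acetylated peaks the share was 51.2% (50.1 to 52.3), and for distant peaks 14.4% (12.5 to 16.5). The rule sets part of this order. Most GATA4 peaks were acetylated, and a distant peak, with no H3K27ac within 25 kb, can have hardly any of these that near. The median distance to the nearest other GATA4 peak was 62.9 kb for flanking, 23.6 kb for acetylated and 202.2 kb for distant peaks. That neighbour was acetylated for 607 flanking peaks (69.7%, 66.6 to 72.7), flanking for 178 (20.4%, 17.9 to 23.2) and distant for 86 (9.87%, 8.07 to 12.0). Of 53 flanking peaks with another GATA4 peak within 1 kb, the neighbour was itself flanking for 49 and acetylated for 4. The rule largely fixes this split, since only 257 of 871 flanking peaks had H3K27ac within 1 kb.

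Most flanking peaks were the only one in their gap. How many groups an even spread would give was not tested. Among the gaps between neighbouring H3K27ac peaks, 774 held 1 flanking peak, 37 held 2 and 6 held 3 or more. The largest group was in a gap of 171.2 kb on chromosome 16 from 43891395 to 44062625. Its 5 peaks followed each other within 2.51 kb, from 43912429 to 43914935, with widths of 582, 299, 289, 359 and 371 bp. All 5 were wider than the upper quartile of flanking peaks, they lay 21.0 to 23.2 kb from the acetylated peak on their left, and that peak, of 3372 bp, held GATA4. The stretches between them were 63 to 357 bp long.

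The groups of 4 had narrower peaks with looser spacing. A gap of 46.7 kb on chromosome 8 from 126094690 to 126141340 held 4 peaks of 125 to 166 bp spread over 8.21 kb, 14.7 to 22.7 kb from acetylation. On chromosome 12 a gap of 24.6 kb from 60115974 to 60140536 held 4 peaks of 125 to 237 bp within 2.56 kb, which lay 1453 to 3845 bp from an H3K27ac peak of 1597 bp. Gaps with 3 flanking peaks were on chromosome 8 from 55186191 to 55247809, chromosome 9 from 89717161 to 89869460 and chromosome 15 from 59262687 to 59267562. The last, only 4.88 kb long, had 3 peaks of 175 to 238 bp within 1.46 kb. On chromosome 9 the 3 peaks were 234 to 347 bp wide and lay within 1.35 kb, so that group was neither narrow nor loose. None of the peaks in these 6 gaps overlapped TCF7L2, and only 2.64% of all flanking peaks did.

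The share of flanking peaks with TCF7L2 was near that of all GATA4 peaks. It overlapped 23 of 871 flanking peaks (2.64%, 1.77 to 3.93), and the share over all 10319 autosomal GATA4 peaks was 2.98%. In acetylated peaks it was 252 of 8295 (3.04%, 2.69 to 3.43) and in distant peaks 32 of 1153 (2.78%, 1.97 to 3.89). The 3 intervals overlap, so no difference between the settings was detectable with these counts. By distance the overlaps were 4 of 213 within 500 bp of H3K27ac (1.88%, 0.733 to 4.73) and 9 of 294 at 10 to 25 kb (3.06%, 1.62 to 5.71). Seen from TCF7L2, a GATA4 peak was present on 25 of 57 TCF7L2 peaks that were themselves outside H3K27ac and within 25 kb of it (43.9%, 31.8 to 56.7), on 247 of 630 in H3K27ac (39.2%, 35.5 to 43.1) and on 33 of 68 farther away (48.5%, 37.1 to 60.2).

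**Figure D4:**
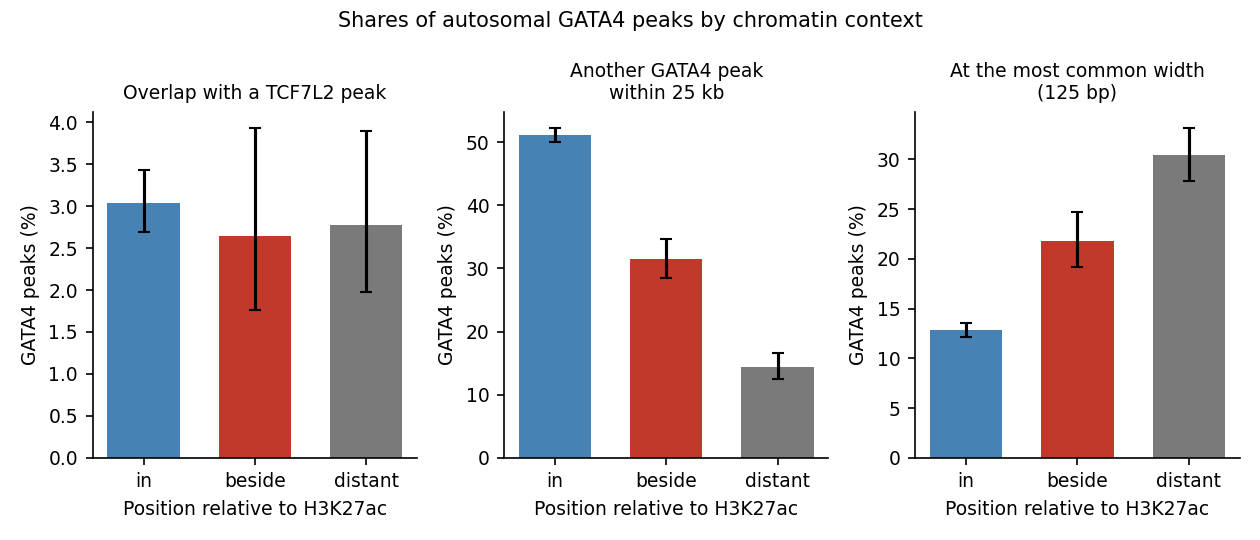
Percentage of GATA4 peaks in (blue), beside (red) and distant from H3K27ac (grey) that overlapped TCF7L2 (left), had another GATA4 peak within 25 kb (middle) or had the most common width of 125 bp (right), with 95% Wilson intervals. The intervals of the TCF7L2 shares of 3.04, 2.64 and 2.78% overlap. The shares with a GATA4 neighbour step down from 51.2 to 31.6 to 14.4%, an order that the rule for the classes sets in part.

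Where TCF7L2 and a flanking GATA4 peak met, they were nearly concentric. The midpoints were a median of 15 bp apart (range 0 to 181.5 bp), and 19 of 23 were within 50 bp. No flanking peak had a TCF7L2 peak within 1 kb without overlapping it, and 16 more had one within 25 kb. The median width of flanking peaks was 218 bp (177 to 236) where TCF7L2 was present, against 161 bp (157 to 168) elsewhere. Acetylated GATA4 peaks were likewise 262 bp (236 to 293) with TCF7L2 and 194 bp without, and distant ones 214 and 147 bp. Wide peaks have more bases that can overlap. Of the 23, 13 had acetylation within 25 kb on both sides, 8 had another GATA4 peak within 25 kb, and for 3 the nearest H3K27ac peak held GATA4.

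The shared places within 500 bp of acetylation were 4. On chromosome 4 the GATA4 peak from 41450199 to 41450323 lay 26 bp from H3K27ac, and its TCF7L2 peak of 358 bp reached 56 bp into the acetylated peak. On chromosome 14, from 60883751 to 60883939 at 86 bp, the TCF7L2 peak reached 41 bp into H3K27ac. The other two were on chromosome 19 from 4510154 to 4510496, at 79 bp, and on chromosome 11 from 85613377 to 85613553, at 198 bp, where the factors shared only 17 bp. In this group acetylation lay within 25 kb on both sides, and 2 of the 23 TCF7L2 peaks touched it.

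Between 0.5 and 5 kb from acetylation lay 7 more. These were chromosome 11 from 82728546 to 82728715 (819 bp away), chromosome 13 from 30424516 to 30424770 (1346 bp), chromosome 19 from 23431881 to 23432047 (1643 bp), and chromosome 8 from 86280732 to 86280949 (1871 bp), from 75843494 to 75843698 (2527 bp) and from 36197889 to 36198111 (2871 bp). The last of the 7 was on chromosome 19 from 61000539 to 61000735 (4551 bp). The acetylated neighbours of the peaks at 819, 1346 and 2527 bp were broad, at 6939, 14223 and 6779 bp, and were the 3 that held GATA4.

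The remaining 12 lay 5.9 to 22.9 kb from acetylation. On chromosome 1 they were from 46132853 to 46133088 (8688 bp away), from 195053939 to 195054174 (13976 bp) and from 194277853 to 194278081 (22910 bp). On chromosome 6 they were from 114291428 to 114291861 (16067 bp), a GATA4 peak of 434 bp that carried 2 TCF7L2 peaks, and from 49186395 to 49186655 (18355 bp). Chromosome 9 had one from 95326278 to 95326511 (17716 bp) and one from 110183703 to 110183927 (22600 bp). Single places were on chromosome 5 from 93718597 to 93718809 (5907 bp), chromosome 12 from 92493365 to 92493536 (9682 bp), chromosome 13 from 35130182 to 35130356 (11222 bp) and chromosome 10 from 71759874 to 71760147 (11835 bp). The 31 bp peak on chromosome 18 from 90772001 to 90772031 (21688 bp away) was the last; its TCF7L2 peak was 27 bp wide and no H3K27ac peak followed it on the chromosome. None of these 12 had a nearest acetylated peak that held GATA4. Over all flanking peaks the share was 11.0%, and 8.74% of all autosomal H3K27ac peaks held GATA4, so 12 are too few to show a difference.

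Flanking peaks were found on all 19 autosomes. Over all autosomes there were 0.361 per Mb (0.338 to 0.386). Chromosome 10 had the highest density, 0.528 per Mb (0.409 to 0.670) from 67 peaks, followed by chromosome 5 with 0.462 from 69 peaks, chromosome 13 with 0.452, chromosome 11 with 0.446 and chromosome 18 with 0.411. The lowest were chromosome 15 with 25 peaks or 0.249 per Mb (0.161 to 0.368), chromosome 3 with 0.251, chromosome 14 with 0.278, chromosome 19 with 0.292 and chromosome 1 with 0.299. The intervals of chromosomes 10 and 15 do not overlap; each of these was picked from 19 as an extreme.

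The density of flanking peaks followed the acetylated share of a chromosome only loosely. Over 19 autosomes, Pearson's r between flanking peaks per Mb and the percentage of length in H3K27ac was 0.295 (Spearman's rho 0.232). For acetylated GATA4 peaks r was 0.966 (rho 0.919), and for distant peaks -0.521 (rho -0.391). The rule sets part of this contrast, since more H3K27ac gives acetylated peaks more room and distant peaks less. Per Mb of unacetylated sequence within 25 kb of H3K27ac, flanking peaks ranged from 0.769 on chromosome 15 to 1.43 on chromosome 10, with r = 0.00906 (rho 0.0158) to the acetylated share. Each chromosome had 17 to 69 flanking peaks, and the part of counting error in these values was not tested. Chromosomes differ in gene content and base composition, and all points come from the same lists, so these values are descriptions.

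**Figure D5:**
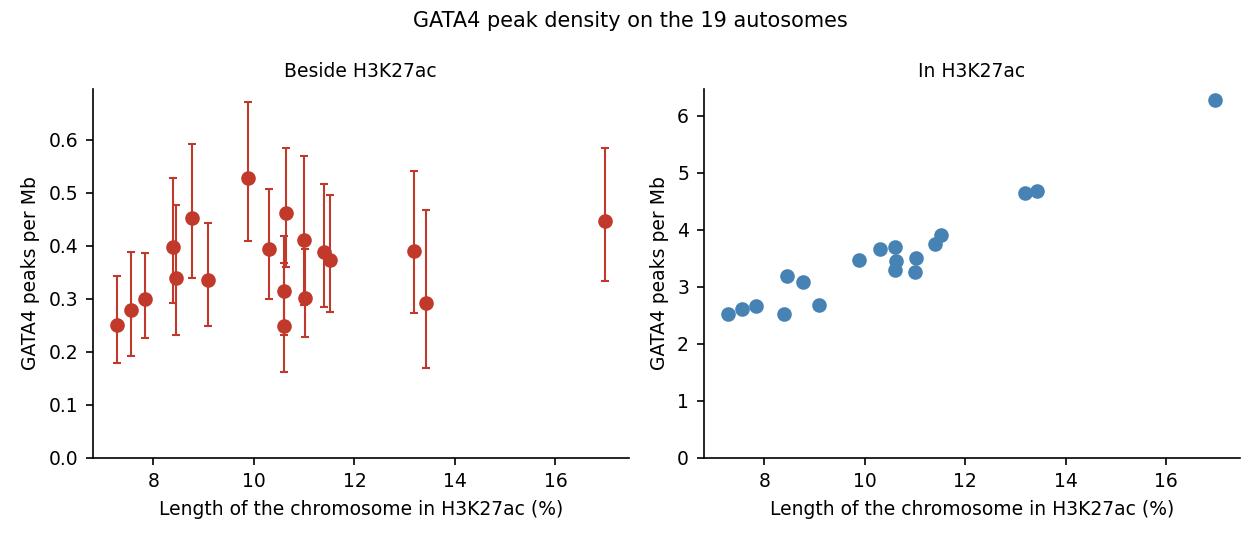
GATA4 peaks per Mb against the percentage of each autosome's length in H3K27ac, 1 point for each of 19 autosomes; left, flanking peaks with exact Poisson 95% intervals, right, acetylated peaks. The left points lie between 0.249 and 0.528 without a clear slope (r = 0.295). The right points rise with acetylation (r = 0.966), which the rule for the classes sets in part.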

How the data were processed

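ChIP-seq was made on mouse ventricles at postnatal day 6. The authors deposited 1 BED file for each of 3 antibodies, whose other values are peak start and end in bp, with no score. The submitters' processing notes name Bowtie2 (version 2.2.6.2), peak calling software MACS2 (version 2.1.1.20160309.0), deepTools and FastQC (0.10.0), and build mm9. For the threshold, excluded regions and the merging of 2 replicates into 1 list, details were not given in the sources used here.

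Overlap means 1 bp or more, and distances run between borders. Densities by distance divide peak midpoints by the length of chromosome at that distance. Chromosomes were counted from the lowest to the highest listed position. Densities of flanking peaks by gap, neighbour width and chromosome place peaks by their borders instead. Within 500 bp of H3K27ac there were 213 flanking peaks by border and 200 by midpoint. Shares carry 95% Wilson intervals, densities exact Poisson and medians binomial order-statistic intervals. Counting was checked on simulated data. Python 3.11.15, numpy 2.4.6, pandas 2.3.3 and scipy 1.17.1 were used.

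The members, settings and ranges were chosen with earlier results of these data known. Regions are named by a rule: the 10 widest, the 5 nearest to H3K27ac, 5 on each side of 25 kb, those with TCF7L2, the 5 gaps with most members (the gap on chromosome 15 tied and was added after its value was seen) and the 5 highest and lowest chromosomes. The planned motif and gene annotation was not run, because no genome or annotation of mm9 was used here.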

Additional observations from a re-analysis of the deposited data

How the results depend on the processing

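There were 57 alternatives, 51 of them planned and 6 chosen after seeing the data; 44 left the value within its 95% interval, or a count within 1.5 times. The number of flanking peaks was 577 with a limit of 10 kb, which leaves out peaks by construction. Their median width was 183 bp without GATA4 peaks of up to 125 bp, also by construction. The share with acetylation on both sides was 36.4% without H3K27ac peaks narrower than their median, 31.7% and 51.5% with limits of 10 and 50 kb, 37.0% without peaks within 1 kb of H3K27ac and 39.6% with H3K27ac joined across 2 kb (the added setting). The share whose nearest H3K27ac peak held GATA4 was 18.8% with the wider H3K27ac peaks and 14.3% with joined ones. Another GATA4 peak was within reach of 36.1% with the wider H3K27ac peaks, 28.3% with a limit of 50 kb, 27.4% with GATA4 peaks joined across 1 kb and 17.8% when within 10 kb was asked. The cause of these shifts was not tested where the setting does not set it. The TCF7L2 share stayed within its interval in all 11 alternatives, from 2.30% to 3.66%. No paired analysis was possible because each antibody has 1 list. Depth is unknown, so weak acetylation under the calling threshold cannot be told from none.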
